A study of Mus musculus with 6 samples.

Results

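Loss of Yy1 in activated muscle satellite cells was described here from 1 pair of RNA libraries, 1 wild-type (WT) and 1 labelled as an inducible Yy1 knockout (iKO). Members were genes with at least 1 FPKM (fragment counts scaled by transcript length and by library size) in either library, with Mir762 left out. That gave 11214 member genes of 24312 listed for this pair and 24450 listed in the series. Satellite cells are the stem cells of skeletal muscle. They came from adult mouse muscle and had been cultured for 36 h in F10 medium with 20% fetal bovine serum, a state called activated. A second WT and iKO pair was sequenced from freshly isolated cells, with 11229 genes at 1 FPKM or more, and is given beside the activated values. An immunoprecipitation for YY1 and an input library from activated cells, both labelled C57, gave a list of YY1 peaks. The Cre driver, the inducing treatment, the strain, age and sex of the RNA animals, any pooling and the way the cells were isolated are not stated in the labels. Whether the WT cells received that treatment or carried a modified Yy1 allele is not stated either.

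YY1 is a zinc finger protein that binds DNA at promoters and enhancers, where it can raise or lower transcription, and it interacts with INO80 and Polycomb proteins. It has also been linked to loops between enhancers and promoters. In muscle it is known as a repressor of late differentiation genes and as a regulator of mitochondrial genes. On activation, satellite cells enlarge, build ribosomes and mitochondria and enter the cell cycle, with Pax7 as the factor that marks the lineage.

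Each group held 1 library, so every value below is a single measurement and no difference has a replicate check or a test. The ratio used throughout is log2((iKO FPKM + 1)/(WT FPKM + 1)), and a ratio of at least 1 or at most −1 is called 2-fold higher or lower, which is a rule of size. Reads behind each value are unknown, but the steps between low values gave a relative depth of 0.666 for iKO over WT, at which 301 of 1573 low genes lay (19.1%), and of 1.00 in the freshly isolated pair. Without Mir762, FPKM summed to 505469 in the WT and 749701 in the iKO library. Scaled to equal sums, the median ratio of all members moves from −0.00 to −0.50. The ratios are therefore relative to the median gene.

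Markers of the lineage were present in both libraries. Of 19 satellite cell identity genes 18 reached 1 FPKM, with a summed level of 1898 FPKM in WT and 1499 FPKM in iKO, and Myog was listed at 0 in both. Leukocyte markers summed to 5.91 and 18.5 FPKM, of 21 genes 3 reached 1 FPKM, and Ptprc was at 0 in both libraries. The 3 were all higher in iKO, Cd14 (2.80 and 9.75 FPKM), Cd68 (1.36 and 5.16 FPKM) and Cd79a (0.287 and 1.28 FPKM). Fibroblast and fibro-adipogenic markers summed to 152 and 75.7 FPKM, with 8 of 16 at 1 FPKM or more and Pdgfra at 0.827 and 0.344 FPKM. Without Cd34, which is also a satellite cell gene, they summed to 48.1 and 30.6 FPKM. Dcn, a matrix proteoglycan of fibroblasts, was at 4.95 and 5.43 FPKM, and Prrx1 at 15.8 and 4.81 FPKM. Pericyte and smooth muscle markers summed to 102 and 66.0 FPKM with 4 of 10 present, and Schwann and glial markers to 80.7 and 54.6 FPKM with 2 of 10 present. Ncam1 alone, also made by muscle precursors, gave 77.5 and 52.1 FPKM of the glial sum. Of 15 endothelial markers 3 were present, with Pecam1 at 0.614 and 0.666 FPKM, and no erythroid marker reached 1 FPKM. In bulk RNA, fewer cells of a type and less RNA per cell cannot be told apart.

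The ratio followed the length of the gene's listed locus, which spans introns and merges overlapping genes. In the decile of members with the shortest loci (median 2.81 kb) the median ratio was 0.67, and in the decile with the longest (median 184 kb) it was −0.48. In the freshly isolated pair the same deciles stood at 0.04 and −0.03. A smooth curve of the ratio on locus length was therefore subtracted, and the remainder is called the adjusted ratio. By the unadjusted ratio 979 members (8.73%) were 2-fold higher in iKO and 926 (8.26%) were 2-fold lower. Adjusted, 619 (5.52%) were higher and 764 (6.81%) lower. Of the 979 higher genes 441 were also higher after adjustment, while 178 came in anew, and of the 926 lower genes 576 were also lower, while 188 came in. The choice of members used no ratio, but 103 of the 619 lay within 0.05 above the 2-fold line and 86 further genes lay within 0.05 below it. On the lower side, 89 lay just inside and 88 just outside. Within 1% of the 1 FPKM limit, 11 members lay inside and 14 genes outside.

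**Figure D1:**
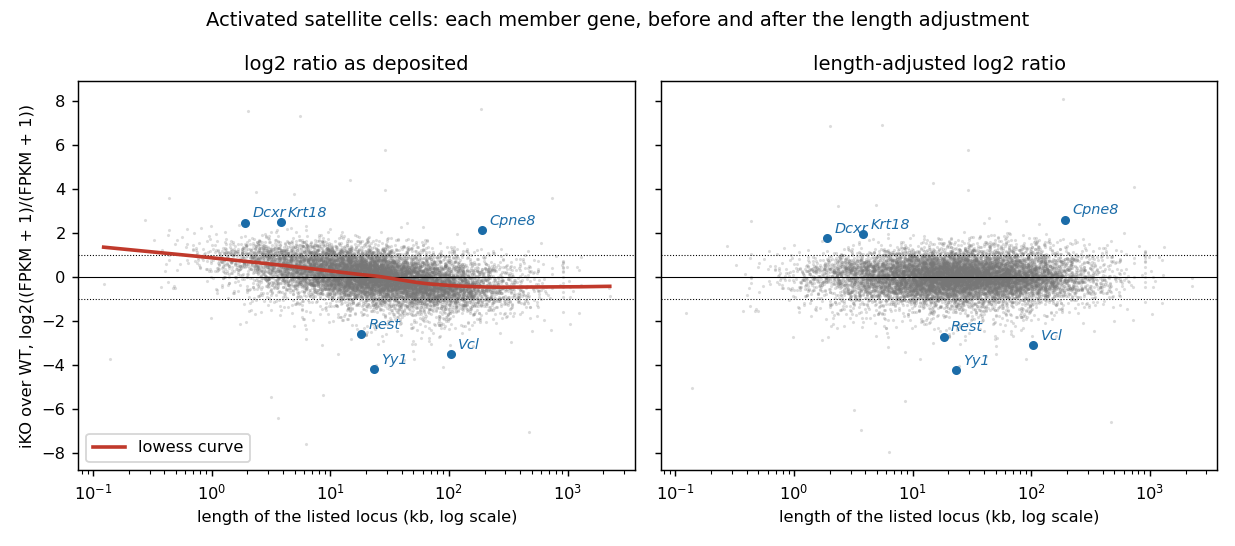
Each grey point is 1 of 11214 member genes, with the length of its listed locus (kb, log scale) on the x axis and the log2 ratio of iKO over WT on the y axis, as deposited (left, with the lowess curve in red) and after the curve was subtracted (right); dotted lines mark 2-fold. The left cloud slopes down with length, from a median of 0.67 in the shortest decile to −0.48 in the longest, and the right cloud is level, with Yy1 among the lowest points in both.

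A second trend remained after adjustment. In the decile of members with the highest level (median 175 FPKM) the median adjusted ratio was 0.38, while in the lowest decile it was −0.13. List medians are therefore also given after a further curve on level was subtracted, where that changed the sign or moved the median by over 1.5 times. Counts of list members past 2-fold are to be read beside 5.52% higher and 6.81% lower over all members. Of the members, 2395 (21.4%) share a listed locus with another symbol, so that the authors' counting may have split reads between overlapping genes or copies, and such genes are marked below. Transcript length was not used here, and its part in any ratio was not tested.

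The deleted gene had the lowest adjusted ratio of the genes eligible to be named. Yy1 (chromosome 12, 110031521 to 110054842, build mm9) stood at 55.2 FPKM in WT and 2.03 FPKM in iKO, an adjusted ratio of −4.26, and at 51.0 and 20.1 FPKM in freshly isolated cells. Its nearest listed neighbour was among the 15 highest of the genes eligible to be named. Slc25a29, a mitochondrial carrier of basic amino acids, begins 9.25 kb beyond the end of the Yy1 locus (chromosome 12, 110064088 to 110074086). It stood at 1.99 FPKM in WT and 12.3 FPKM in iKO, an adjusted ratio of 1.89. In freshly isolated cells it was at 3.86 and 12.8 FPKM, so both iKO libraries were above both WT libraries. The 4 next members on that side all had unadjusted ratios between −0.14 and 0.12, and adjusted ratios between −0.56 and 0.55. Slc25a47, another mitochondrial carrier 34.5 kb away, was at 4.19 and 3.72 FPKM. Wars, the tryptophan tRNA synthetase 43.4 kb away, was at 47.1 and 50.8 FPKM. On the other side the nearest entry is a merged locus that holds Evl, Eml1 and Degs2. Their unadjusted ratios were −0.68, −0.64 and 0.68. Adjusted, these were −0.21, −0.17 and 1.15, so Degs2 was 2-fold higher by the adjusted ratio. How the Yy1 allele was built is not stated in the labels, and its part in the value of Slc25a29 was not tested.

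Among the 14 eligible genes with the next lowest adjusted ratios were regulators of adhesion, of kinase signalling and of transcription. Vcl (chromosome 14, 21748655 to 21852895) encodes vinculin, which ties integrin adhesions to actin. Its level was 17.4 FPKM in WT and 0.611 FPKM in iKO, an adjusted ratio of −3.11. Arhgap5, a GTPase-activating protein that acts on the cytoskeleton, was at 18.8 and 1.39 FPKM (−2.81). Spred2, an inhibitor of Ras to ERK signalling (chromosome 11, 19824445 to 19922600), was at 29.2 and 1.77 FPKM (−3.05). Mob1a, an adaptor of the Hippo kinases (chromosome 6, 83276033 to 83290943), was at 61.6 and 7.67 FPKM (−2.996). Rest, the repressor of neuronal genes outside neurons (chromosome 5, 77694519 to 77712722), was at 8.90 and 0.608 FPKM (−2.72). Eif4ebp2, which binds the cap-binding factor eIF4E and restrains translation, was at 39.7 and 5.51 FPKM (−2.72). All of these stood within 2-fold in freshly isolated cells, where Vcl was at 25.3 and 23.7 FPKM and Spred2 at 11.9 and 11.6 FPKM.

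The rest of that group included carriers, a channel subunit and a phosphatase regulator. Slc25a30, a mitochondrial carrier, was at 23.7 FPKM in WT and 2.00 FPKM in iKO (adjusted ratio −3.06). Ppp1r3e, which targets protein phosphatase 1 to glycogen, was at 6.82 and 0.883 FPKM (−2.75). Lrrc8b, a subunit of volume-regulated anion channels, was at 8.79 and 0.186 FPKM (−2.71), and in freshly isolated cells at 2.27 and 0.783 FPKM. Glg1, a Golgi glycoprotein, was at 32.2 and 2.85 FPKM (−2.71), and a YY1 peak lies within 2 kb of an end of its locus. Fam57a was at 15.2 and 1.29 FPKM (−3.22), and Cyb5d1, named for a cytochrome b5 domain, at 12.1 and 1.96 FPKM (−2.87). The next genes in order, Isoc1, Trim56 and Ndst1, had adjusted ratios of −2.70, −2.69 and −2.69, so nothing separates the named group from those below it.

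On the higher side, 3 of the 15 genes are known from epithelia. Krt18, a keratin of simple epithelia (chromosome 15, 101858647 to 101862457), had 2.81 FPKM in WT against 20.2 FPKM in iKO, an adjusted ratio of 1.95. Its partner Krt8 was at 1.14 and 3.21 FPKM (0.64). St14, the membrane protease matriptase, was at 1.63 and 7.32 FPKM (1.85). Sbsn, suprabasin of the epidermis, was at 1.91 and 12.4 FPKM (1.73), and in freshly isolated cells at 54.2 and 129 FPKM. Both states thus showed more Sbsn in iKO, while Krt18 stood under 1 FPKM in freshly isolated cells (0.768 and 0.285).

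Receptor, adaptor and trafficking genes were also in that group. Fas, the death receptor, was at 2.83 FPKM in WT and 11.1 FPKM in iKO (adjusted ratio 1.79), against 291 and 196 FPKM in freshly isolated cells. Blnk, an adaptor of the B cell receptor, was at 27.1 and 85.3 FPKM (1.93), against 49.5 and 32.7 FPKM. For these 2 genes the unadjusted ratio was positive in activated and negative in freshly isolated cells, −0.57 for Fas and −0.59 for Blnk, and the difference was not tested. Cpne8, a calcium-dependent membrane-binding copine, had the highest adjusted ratio of the genes eligible to be named, 2.59, at 2.37 and 13.7 FPKM. Ap1s3, a small subunit of the AP-1 clathrin adaptor, was at 1.76 and 7.79 FPKM (1.98). Fbxo36, an F-box protein, was at 1.37 and 10.3 FPKM (2.55).

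Mitochondrial, redox and RNA enzymes completed it. Chchd7, a small mitochondrial protein, was at 18.98 FPKM in WT and 81.4 FPKM in iKO (adjusted ratio 1.85). Mgst1, a glutathione transferase of membranes, was at 9.25 and 37.0 FPKM (1.77). Dcxr, a carbonyl and xylulose reductase, was at 10.5 and 62.0 FPKM (1.76). Pstk, a kinase in selenocysteine synthesis, was at 13.2 and 50.3 FPKM (1.74). Cwc27, a spliceosome-associated cyclophilin, was at 20.1 and 50.2 FPKM (1.74), with a YY1 peak within 2 kb of a locus end. Serf1 was at 28.4 and 129 FPKM (1.76). The next genes in order, Lrrc51 and Pcbd2, stood at 1.71 and 1.69.

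**Figure D2:**
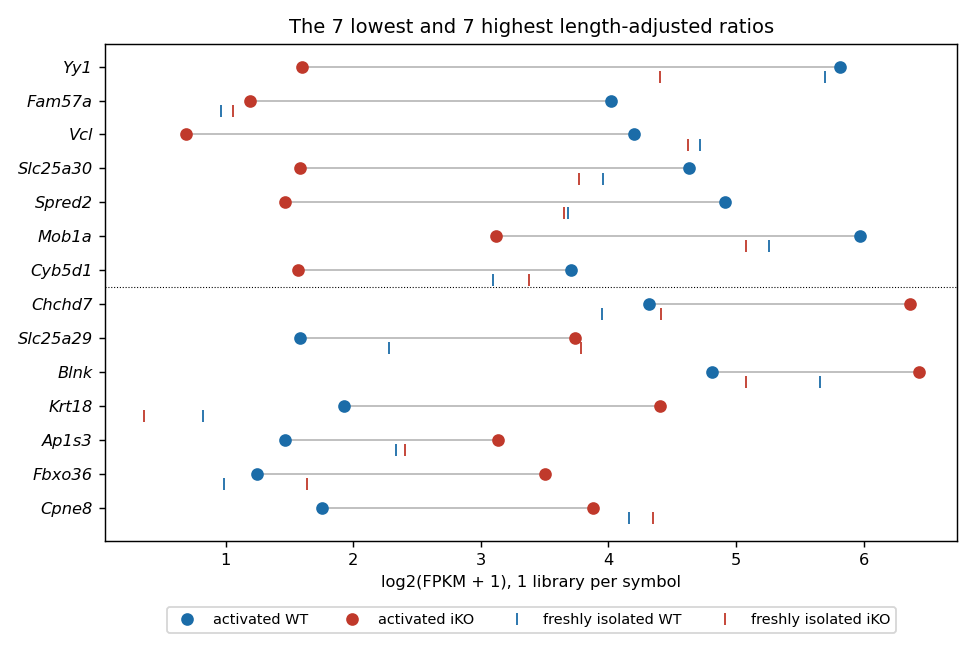
Levels as log2(FPKM + 1) of the 7 genes with the lowest (above the dotted line) and the 7 with the highest adjusted ratio among genes eligible to be named. Each symbol is 1 library, with circles for activated WT (blue) and iKO (red) and ticks for freshly isolated cells. The circles of each gene lie apart, and the ticks lie closer together than the circles for each of them; Yy1 and Slc25a29 have the most widely separated ticks.

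Genes that mark satellite cells and steer the myogenic lineage lay mostly on the lower side. Of 18 identity genes 15 had an adjusted ratio below 0 and 5 were 2-fold lower, none higher, with a list median of −0.53 where all members have −0.01. Pax7 was at 28.3 FPKM in WT and 6.19 FPKM in iKO (adjusted ratio −1.64). Myf5, a myogenic determination factor, was at 45.7 and 28.3 FPKM (−1.25). Vcam1, an adhesion molecule used to sort these cells, was at 62.2 and 27.6 FPKM (−1.22), and Sdc3, a syndecan, at 50.3 and 20.4 FPKM (−1.17). Cd34, which shares its listed locus, was at 103 and 45.1 FPKM (−1.04). Pax3 (0.732 and 1.25 FPKM) and Sdc4 (180 and 237 FPKM) had the highest ratios of the list, 0.77 and 0.31. In freshly isolated cells Pax7 was at 61.8 and 78.3 FPKM and the list median was −0.09.

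Myogenic regulators gave a similar picture in partly the same genes, with 25 of 32 below 0, 6 lower and a median of −0.46. Six4, a homeobox factor upstream of myogenic genes, was at 8.81 and 1.85 FPKM (−1.97). Klf5, a zinc finger factor, was at 13.6 and 4.01 FPKM (−1.69). Tead4, a DNA-binding partner of YAP, was at 3.93 and 0.650 FPKM (−1.24). Contractile and differentiation genes were scarcely present, with 13 of 42 at 1 FPKM or more, and differed among themselves. Acta1, skeletal actin, was at 4.66 and 1.88 FPKM (−1.56), while Tnnt2, a troponin T, was at 42.0 and 83.5 FPKM (0.85). Their median of 0.40 came with a median level of 2.94 FPKM, and was −0.10 over the members that reach 5 FPKM.

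Several receptors and transducers of Wnt signals were lower. Of 38 Wnt and Hippo members 32 were below 0 and 13 were 2-fold lower, with none higher and a median of −0.59, while in freshly isolated cells the median was 0.05. These 13 held 5 of the Frizzled receptors. Fzd4 was at 7.03 FPKM in WT and 1.25 FPKM in iKO (adjusted ratio −2.25), and Fzd1 at 7.25 and 2.18 FPKM (−1.87). Dvl3, which relays the Frizzled signal, was at 12.5 and 1.89 FPKM (−2.36). Vgll4, an inhibitor of TEAD factors, was at 13.5 and 1.58 FPKM (−2.20). Yap1 itself was at 37.2 and 32.5 FPKM (0.15), and Tcf7l2, a Wnt-responsive factor, at 9.26 and 12.2 FPKM (0.82).

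Other signalling lists had smaller medians on the same side. Among FGF and HGF receptors with their inhibitors 23 of 28 were below 0, 4 were lower and the median was −0.30. Next to Spred2, these were the ERK phosphatases Dusp4 (16.0 and 3.78 FPKM, −2.03) and Dusp5 (51.9 and 14.1 FPKM, −2.02), and the receptor Fgfr4 (18.8 and 9.52 FPKM, −1.04). BMP and TGF-beta genes had 28 of 42 below 0 and 5 lower, led by the ligand Gdf11 at 4.49 and 0.422 FPKM (−2.30). Notch genes had 17 of 24 below 0 and 2 lower (8.33%, near the 6.81% of all members), the ligands Jag2 (28.2 and 13.8 FPKM, sharing its locus) and Dll1 (7.32 and 4.06 FPKM). Of the IL-6 family and STAT3 genes, 21 of 27 were below 0. Clcf1, a cytokine, was at 64.5 and 25.4 FPKM (−1.63), and Il6st, the shared receptor chain gp130, at 49.4 and 19.5 FPKM (−1.11).

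Insulin signalling held one of the lowest pairs among the nutrient-sensing genes. Irs1, the adaptor of the insulin and IGF receptors, was at 14.1 FPKM in WT and 1.22 FPKM in iKO (adjusted ratio −2.48). Its relative Irs2, which shares its listed locus, was at 7.20 and 0.648 FPKM (−1.99), and the transcription factor Foxo3 at 16.6 and 3.62 FPKM (−1.55). In freshly isolated cells Irs1 stood at 3.26 and 3.28 FPKM and Irs2 at 53.3 and 54.5 FPKM. The list as a whole was centred, with a median of −0.06, and −0.01 with the curve on level, over 49 members. Of these 5 were lower (10.2%, beside 6.81% of all members) and 3 higher (6.12%, beside 5.52%). The higher side held Akt1s1, an inhibitor of mTORC1 that shares its locus, at 62.7 and 196 FPKM (1.23), Rheb, the activator of mTORC1, at 100 and 183 FPKM (1.012), and Sirt5, a mitochondrial deacylase, at 3.68 and 9.19 FPKM (1.09).

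Most matrix and adhesion genes had adjusted ratios below 0, and fewer passed 2-fold. For collagens and matrix glycoproteins the median was −0.75, the lowest of the lists with at least 12 measured members, with 27 of 33 below 0, 8 lower and 1 higher. Lox, which crosslinks collagen, was at 8.93 and 2.45 FPKM (−1.69). Thbs1, thrombospondin, was at 133 and 49.7 FPKM (−1.54), and Bgn, biglycan, at 77.4 and 35.3 FPKM (−1.31). Col18a1, which gives rise to endostatin, was the exception at 8.23 and 16.7 FPKM (1.35). The fibroblast marker sum was lower in the same library, mainly through Cd34, and also without it (48.1 and 30.6 FPKM). Of 8 measured fibroblast markers 5 had an adjusted ratio below 0 and 3 above. By 2-fold, 3 were lower (37.5%, beside 6.81% of all members) and none higher. Prrx1 was at 15.8 and 4.81 FPKM, while Dcn and Smoc2 were not lower. The part of fibroblasts in the matrix values was not tested. Of 19 integrins and laminins 17 were below 0 and 4 were lower. These 4 are basement membrane genes, Nid1 (13.2 and 2.15 FPKM, −1.83), Lama5 (8.38 and 1.81 FPKM, −1.51), Lama2 (17.4 and 3.74 FPKM, −1.48) and Lamc1 (42.1 and 13.7 FPKM, −1.14), of which Lama5 and Lama2 share their loci.

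Focal adhesion and actin genes had 43 of 65 below 0 and 7 lower, with a median of −0.28. Beside Vcl these included Flnc, muscle filamin, at 54.2 and 15.4 FPKM (−1.73), and Diap3, a formin, at 9.42 and 1.87 FPKM (−1.39). Subunits of the Arp2/3 complex lay at the other end, with Arpc1a at 48.7 and 83.0 FPKM (0.73). Immediate early genes, many with short loci, had a median of 0.05 before and −0.46 after adjustment. Of 32, 23 were then below 0 and 4 lower, among them Fosl1, a subunit of AP-1 that shares its locus, at 46.2 and 19.9 FPKM (−1.44), and Rhob, a small GTPase, at 112 and 81.1 FPKM (−1.13).

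Most mitotic genes had ratios below 0, 62 of 71 below 0, 17 lower and 2 higher, median −0.59. Prc1, which bundles spindle microtubules, was at 36.1 FPKM in WT and 13.2 FPKM in iKO (adjusted ratio −1.44). Ccnb1, cyclin B1, was at 33.1 and 14.98 FPKM (−1.43), and Plk4, the kinase of centriole duplication, at 18.3 and 7.07 FPKM (−1.37). The 2 higher members were Pttg1, securin, at 26.3 and 80.4 FPKM (1.17), and Cenpw, a histone-fold protein of the centromere, at 5.25 and 17.1 FPKM (1.052). The replication list was shifted less, with 37 of 54 below 0, 6 lower and a median of −0.29. Mcm5, a subunit of the replicative helicase, was at 81.0 and 32.5 FPKM (−1.38). Cdk6, which drives entry into the cycle, was at 9.81 and 1.81 FPKM (−1.49). The inhibitor Cdkn1a was at 227 and 400 FPKM (0.54), and Cdkn2a at 5.58 and 12.4 FPKM (0.95).

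Partners of YY1 did not move as a block. Over 37 members of the YY1 family and partner list the median was 0.01, and −0.01 with the curve on level. None was higher and 3 were lower (8.11%, near the 6.81% of all members), and 1 of the 3 is Yy1. Crebbp, a histone acetyltransferase, was at 11.4 FPKM in WT and 1.13 FPKM in iKO (adjusted ratio −2.11). L3mbtl2, a Polycomb-like repressor that shares its locus, was at 16.7 and 4.77 FPKM (−1.53). Ino80b, a subunit of the INO80 remodeler, was at 16.0 and 45.0 FPKM (0.86), and Eed, of Polycomb complex 2, at 51.3 and 83.7 FPKM (0.69). Polycomb genes were centred at −0.07, and at 0.03 with the curve on level, with 5 of 34 lower. Phf19, which guides Polycomb complex 2 to methylated histone H3, was the lowest of them at 4.62 and 0.195 FPKM (−2.31).

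Histone methyltransferases and demethylases had 35 of 52 below 0 and 8 lower, with a median of −0.28. Dot1l, the methyltransferase of histone H3 lysine 79, was at 17.7 and 3.37 FPKM (−1.95), and a YY1 peak lies near an end of its locus. Kmt2d, of histone H3 lysine 4, was at 12.7 and 4.74 FPKM (−1.11), and Prmt5, an arginine methyltransferase, at 90.7 and 48.0 FPKM (−1.16). Setd3, the actin histidine methyltransferase, was at 33.7 and 46.0 FPKM (0.78). Chromatin remodelers had 29 of 38 below 0, but 1 member was lower and 1 higher by 2-fold. These were Chd9 at 5.07 and 1.17 FPKM (−1.01) and Smarca2, a catalytic subunit of SWI/SNF that shares its locus, at 9.43 and 20.0 FPKM (1.48). Mediator subunits leaned the other way, with 22 of 32 above 0 and a median of 0.30, although Med16 (11.5 and 3.46 FPKM, −1.65) and Med12 (12.4 and 3.36 FPKM, −1.64) were lower.

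Zinc finger genes were shifted by a small amount in large number. Among 270 members whose symbol begins with Zfp and that share no locus, 187 had an adjusted ratio below 0. Their median was −0.27, or −0.15 with the curve on level. Of the 270, 22 were 2-fold lower and 2 higher, where 6.81% and 5.52% of all members were. The lower count is thus near the share of all members. The 30 Zbtb genes, zinc finger proteins with a BTB domain, had a median of −0.52, with 22 below 0. Both kinds stood at smaller values before adjustment, −0.12 and −0.15. At the other end of the symbol families were the Cox genes of cytochrome c oxidase, with a median of 0.73 over 18. With the curve on level it was 0.38. The Mrps genes of the small mitochondrial ribosome subunit had 0.53 over 25, or 0.28 with the curve on level. The 32 Ube genes of ubiquitin conjugation and activation had 0.46, or 0.29 with the curve on level, and 24 of them were above 0.

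Nearly all small proteins of the spliceosome core had ratios above 0. Of 22 Sm and LSm genes 21 were above 0 and 5 were 2-fold higher, none lower, with a median of 0.77, or 0.46 after the curve on level. Snrpd1 was at 206 FPKM in WT and 536 FPKM in iKO (adjusted ratio 1.13), and Lsm6 at 19.7 and 49.2 FPKM (1.15). SR and hnRNP proteins, which bind the pre-mRNA, lay on the other side with a median of −0.15, or −0.37 with the curve on level, and 25 of 41 below 0. The lowest was Hnrnpul1 at 61.5 and 14.8 FPKM (−1.91), followed by Ptbp1, a repressor of exon inclusion that shares its locus, at 217 and 92.4 FPKM (−1.27). Of nuclear RNA polymerase subunits 3 of 31 were higher and none lower, with Polr2k at 65.1 and 224 FPKM (1.17). The largest subunit of polymerase II, Polr2a, was at 67.9 and 42.1 FPKM (−0.70). Small nucleolar RNA host genes had 12 of 13 above 0 and a median of 0.76, or 0.46 with the curve on level and 1.10 without shared loci. Snhg3 was at 65.6 and 231 FPKM (1.07), and its list had a median of 1.48 before adjustment.

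Genes of translation depended on how locus length and level were handled. Cytosolic ribosomal proteins had a median of 1.09 as deposited, 0.47 adjusted for length and 0.02 adjusted for length and level, and 8 of 78 were 2-fold higher after the length adjustment where 56 had been before it. Rpl5, which shares its locus, was at 622 and 1287 FPKM (1.42), and Rpl15 was at 288 and 406 FPKM (−0.08). Translation initiation factors had 32 of 45 above 0, 4 higher and 2 lower. Their median of 0.20 became −0.10 with the curve on level. The 4 higher were Eif5b (35.7 and 81.6 FPKM, 1.60), Eif3m (219 and 450 FPKM, 1.46), Eif2b3 (45.1 and 84.3 FPKM, 1.21) and Eif3h (262 and 470 FPKM, 1.19), and the first pair share their loci. Nucleolar ribosome biogenesis factors likewise stood at 0.15, and at −0.15 with the curve on level, so no direction is given for them.

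Most subunits of the respiratory chain had adjusted ratios above 0, and a smaller number passed 2-fold. Complex I had 36 of 37 members above 0, 12 of them 2-fold higher and none lower, with a median of 0.81, and 0.47 with the curve on level. Ndufa7, an accessory subunit, was at 180 FPKM in WT and 551 FPKM in iKO (adjusted ratio 1.44). Ndufs4 was at 44.6 and 80.9 FPKM (1.24). The core subunit Ndufs8 was at 91.0 and 133 FPKM (0.02). Complexes II to IV and ATP synthase had 33 of 41 above 0 and 7 higher, with a median of 0.56, and 0.19 with the curve on level. Atp5l, a membrane subunit of ATP synthase, was at 292 and 854 FPKM (1.20). The large subunits of its F1 part had negative ratios, with Atp5a1 at 472 and 361 FPKM (−0.68) and Atp5b, which shares its locus, at 796 and 732 FPKM (−0.48). In freshly isolated cells the medians of the 2 lists were 0.08 and −0.01.

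Import into mitochondria followed the same side, with 32 of 37 above 0, 7 higher and 1 lower, with a median of 0.52, or 0.31 with the curve on level. Pam16, of the import motor, was at 62.2 and 193 FPKM (1.31). Pmpca, a subunit of the protease that removes import signals and a gene that shares its locus, was at 50.3 and 23.8 FPKM (−1.13). Regulators of mitochondrial biogenesis, by contrast, were centred at 0.04, and at 0.00 with the curve on level, with none of 20 past 2-fold, and Tfam, which packages mitochondrial DNA, was at 23.2 and 39.4 FPKM (0.54). For mitochondrial fusion, fission and mitophagy the median was 0.39 over 25, or 0.23 with the curve on level. Fis1, of the outer membrane, was at 86.9 and 191 FPKM (0.94), and the hypoxia-induced Bnip3 was at 14.7 and 8.36 FPKM (−0.84).

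Protein folding and degradation genes were also on the higher side. Proteasome genes had 38 of 47 above 0, 9 higher and none lower, with a median of 0.59, and 0.29 with the curve on level. Psmb7, a catalytic subunit, was at 276 FPKM in WT and 598 FPKM in iKO (adjusted ratio 1.38). Psmb8, its relative in the immunoproteasome family, was at 3.98 and 3.27 FPKM (−0.79). All 16 members of the CCT and prefoldin list, chaperones of actin and tubulin, were above 0, and 3 were higher. Pfdn1 was at 66.5 and 124 FPKM (1.13), while Cct2 was at 489 and 626 FPKM (0.17). With the curve on level the list's median of 0.51 became 0.14. Heat shock and DnaJ genes stood at 0.07, and at −0.04 with the curve on level, with none of 50 past 2-fold.

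Autophagy core genes had 29 of 38 above 0, with 2 higher (5.26%, near the 5.52% of all members) and 1 lower. Map1lc3a, an LC3 protein of the autophagosome membrane, was at 13.1 and 71.5 FPKM (1.63), and Gabarapl2, of the same family, at 57.4 and 133 FPKM (1.00, just under 2-fold). Antioxidant enzymes had 8 of 41 higher and none lower, with a median of 0.31. Glrx3, a glutaredoxin that shares its locus, was at 72.1 and 249 FPKM (1.83). Gss, glutathione synthetase, was at 17.9 and 47.4 FPKM (1.39), and Sod1, superoxide dismutase, at 526 and 1656 FPKM (1.23). Hmox1, heme oxygenase, was the lowest at 224 and 154 FPKM (−0.89). Among p53 pathway genes 27 of 38 were above 0, with a median of 0.38, or 0.21 with the curve on level. By 2-fold, 2 were higher and 2 lower (5.26% each, near the 5.52% and 6.81% of all members). Fas is one of the higher pair, and Gadd45a, a growth arrest gene that shares its locus, the other, at 35.9 and 119 FPKM (1.90). Sesn2, a sestrin, was at 18.4 and 8.43 FPKM (−1.15).

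Lipid and glucose metabolism lists lay on the lower side. Sterol and fatty acid synthesis had 23 of 36 below 0, 11 lower and none higher, with a median of −0.34, against 0.11 in freshly isolated cells. Idi1, an isomerase of the mevalonate pathway, was at 6.52 FPKM in WT and 1.51 FPKM in iKO (adjusted ratio −1.95). Fads2, a fatty acid desaturase, was at 11.3 and 2.44 FPKM (−1.71). Pmvk, another mevalonate enzyme, was at 10.5 and 24.9 FPKM (0.90). Amino acid transporters had 20 of 25 below 0 and 4 lower, led by Slc36a4 at 4.16 and 0.505 FPKM (−1.75).

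Glycolysis and lactate transport had 21 of 27 below 0, 3 lower and a median of −0.43. Slc16a3, the lactate exporter MCT4, was at 13.7 and 2.69 FPKM (−2.24). Eno1, enolase, was at 1032 and 289 FPKM (−2.05), but the symbol Eno1b, a near-identical copy with a shared locus, was at 0.869 and 371 FPKM, so the split of reads between the 2 is uncertain. Tpi1, triose phosphate isomerase, which shares its locus, was at 185 and 98.6 FPKM (−1.32). HIF pathway genes were centred at −0.00, and at −0.06 with the curve on level, with Adm, a vasodilator peptide induced by hypoxia, at 17.4 and 5.54 FPKM (−2.17) and Ndrg1, also induced by hypoxia, at 10.2 and 25.4 FPKM (1.40). Polyamine genes include Amd1 and Amd2, near-identical copies with shared loci whose values moved in opposite directions and are not read here.

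**Figure D3:**
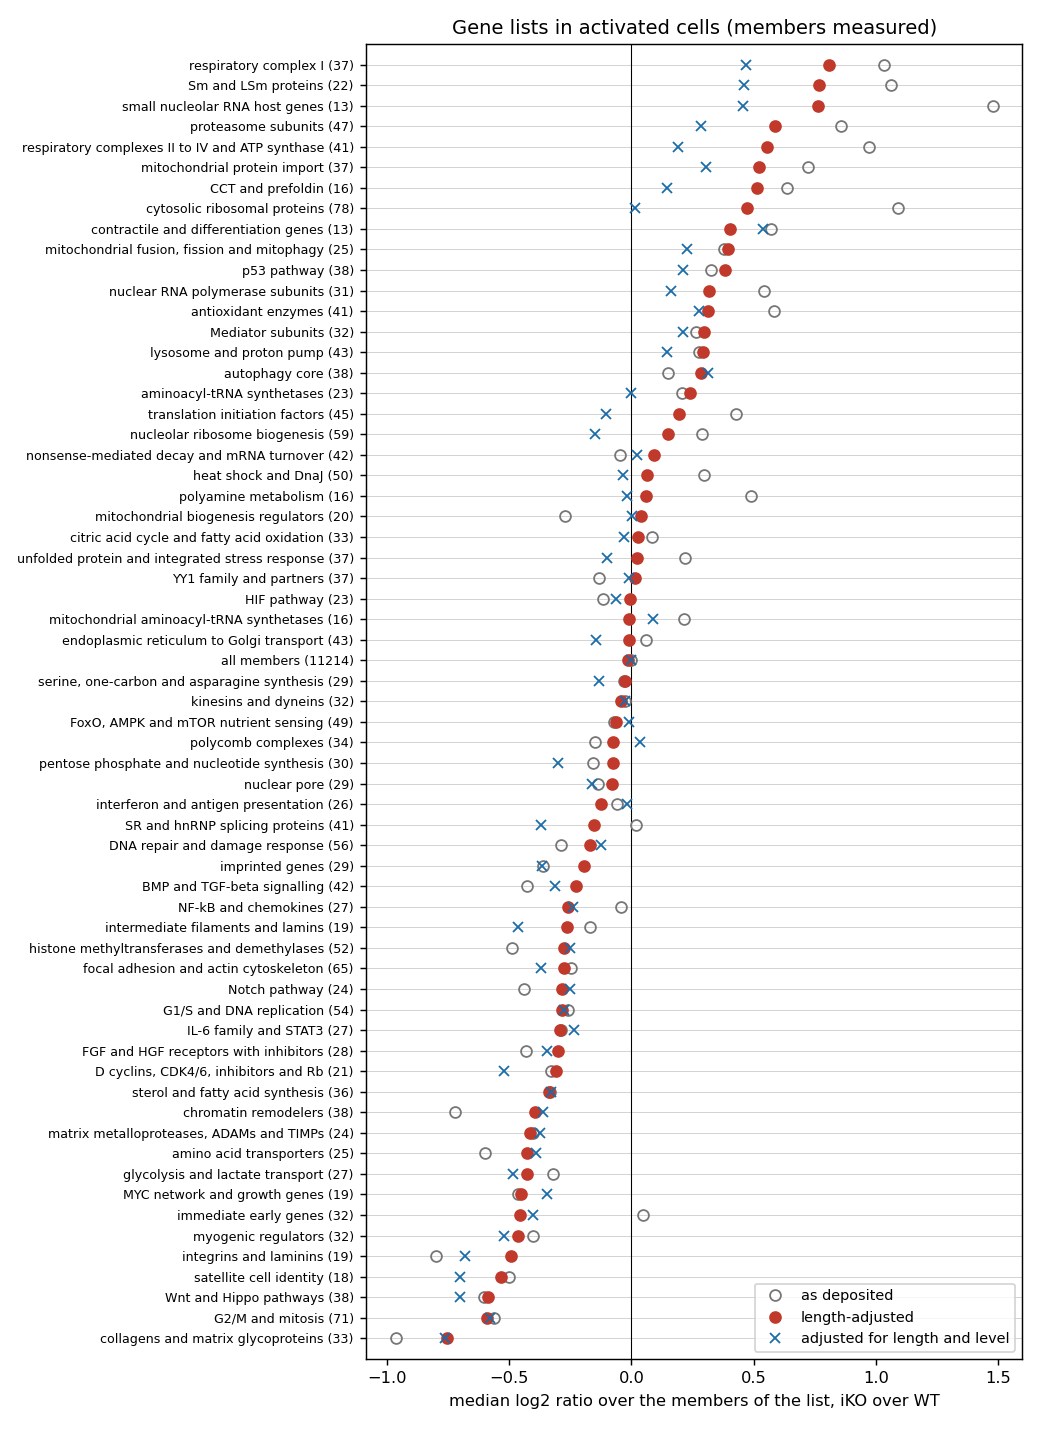
Median log2 ratio of iKO over WT for each gene list with at least 12 measured members (number in parentheses), as deposited (open circles), adjusted for locus length (red) and adjusted for length and level (blue crosses). Complex I lies at the top with 0.81 and collagens and matrix glycoproteins at the bottom with −0.75; for cytosolic ribosomal proteins the 3 marks run from 1.09 through 0.47 to 0.02.

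Genes on the X chromosome were lower than those of any autosome by median, a comparison chosen after the data were seen. Over 365 X-linked members the median adjusted ratio was −0.20, and 63.8% lay below 0. The medians of the 19 autosomes ran from −0.05 to 0.08, and over all 10849 autosomal members 50.4% lay below 0. Of the X-linked genes 11.2% were 2-fold lower and 3.01% higher, beside 6.66% and 5.6% of autosomal ones. With the curve on level the X-linked median was −0.18, and in freshly isolated cells it was −0.02. By deciles of locus length the X-linked median ran from −0.56 to 0.13, with 21 to 53 genes in each, so it was not even across lengths.

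Xist, the RNA that coats the inactive X chromosome, was at 97.5 FPKM in WT and 31.2 FPKM in iKO, an adjusted ratio of −1.36, and at 62.3 and 65.4 FPKM in freshly isolated cells. It shares its listed locus. None of the 16 Y-linked genes listed was above 0 in either activated library, whereas in freshly isolated cells 5 were above 0 in WT (94.7 FPKM summed) and 4 in iKO (43.6 FPKM). The lowest X-linked genes included Uprt at 6.51 and 0.522 FPKM (−2.34), Capn6, a calpain-like protein, at 8.07 and 1.00 FPKM (−2.20), and Tbl1x, a corepressor subunit, at 40.3 and 7.03 FPKM (−1.92). Among the highest was Pin4, a prolyl isomerase, at 68.4 and 194 FPKM (1.17). The X-linked genes named here were chosen after their values were seen. The sex of the animals is not stated in the labels, and its part in the X-linked values was not tested.

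**Figure D4:**
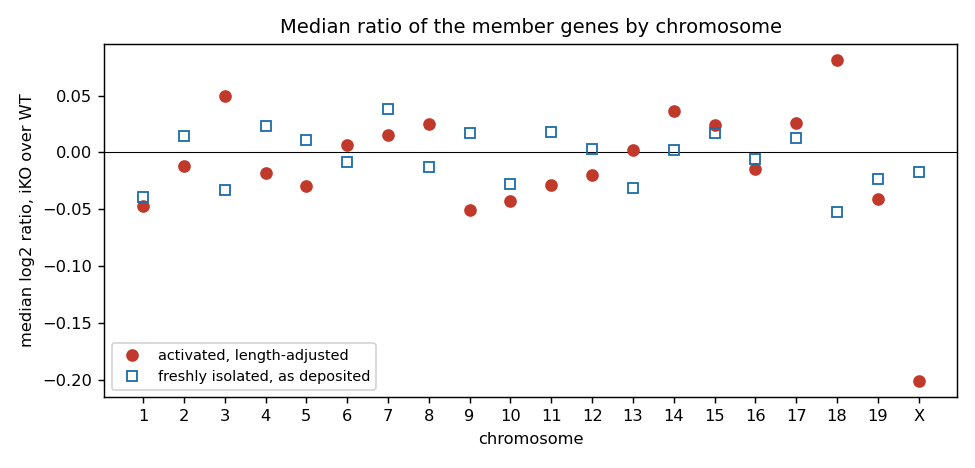
Median log2 ratio of iKO over WT of the member genes on each chromosome, adjusted for locus length in activated cells (red circles) and as deposited in freshly isolated cells (open squares). The X chromosome lies at −0.20 in activated cells, below all 19 autosomes, which run from −0.05 to 0.08.

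The authors deposited 2031 YY1 peaks from activated C57 cells, of which 171 have a −log10 q of at least 5. A peak summit lay within 2 kb of an end of the listed locus for 697 members (6.22%), and only deeper inside the locus for 408. To describe the promoters of genes near the peaks, windows of 300 bases (250 before to 50 after the start, RefSeq on GRCm38.p6) were taken. They were searched on both strands for AANATGGC, a form of the YY1 motif. The windows were placed at gene starts and not at the peaks themselves. The motif was in 6.05% of all 32851 windows, and in at least 1 window of 10.8% of the 8592 members matched by symbol. It was in the promoter of 50.3% of 559 members near a peak, of 62.9% of those near a peak with −log10 q of at least 5, and of 7.93% of members with no peak. Of the 51 members near such a peak with 1 motif match, at least 5 FPKM and a locus of their own, the 5 with the lowest and the 5 with the highest adjusted ratio are shown. Each is the window around its match, on the gene's strand, with the motif or its reverse complement in capitals.

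Hnrnpul1 (chr7:25754750-25754779, minus strand): aggcggcggcgGCCATCTTgagccgccgcc
Zfp747 (chr7:127376102-127376131, minus strand): tagactctgtgGCCATTTTggttgagggct
Med25 (chr7:44892475-44892504, minus strand): tgccccgcacaAACATGGCcgtatcagcat
Poglut1 (chr16:38550259-38550288, minus strand): cgggctcggcaGCCATCTTtgtgtagggca
Cep250 (chr2:155956447-155956476, plus strand): tgccagtacttAATATGGCgagaggtttgc
Gpatch3 (chr4:133574746-133574775, plus strand): tgtgacaggccAAGATGGCgtcgcccaggg
Rcan1 (chr16:92466389-92466418, minus strand): tgcccctaacaAATATGGCcgccccaaggc
Cyb5d2 (chr11:72796025-72796054, minus strand): ccgcctctgccGCCATCTTtgttgagggcg
Usf1 (chr1:171411320-171411349, plus strand): cgcccctcaccAACATGGCcgcaggctggg
Mrps18a (chr17:46111004-46111033, plus strand): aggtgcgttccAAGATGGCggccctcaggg

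Every gene shown has the motif because the set was chosen that way, and the ratios differ among them. Hnrnpul1, with the motif at position −9 from the start, was at 61.5 FPKM in WT and 14.8 FPKM in iKO (adjusted ratio −1.91). Poglut1, an O-glucosyltransferase that acts on Notch, was at 34.5 and 24.9 FPKM (−0.47) and its peak had the highest −log10 q of the 10, 17.8. Med25, of Mediator, was at 30.9 and 22.1 FPKM (−0.64). Mrps18a, of the mitochondrial ribosome, with the motif at base 12 after the start, was at 55.2 and 164 FPKM (1.45). Usf1, an E-box factor, was at 20.3 and 56.4 FPKM (1.08), with the motif at base 19. Rcan1, an inhibitor of calcineurin, was at 8.45 and 14.2 FPKM (1.02), and its motif lies at position −238. The orientation differed among them, with GCCAT on the gene's strand in 4 and ATGGC in 6. Over all members near a peak, 246 of 366 matches (67.2%) read AANATGGC on the gene's strand and 42.1% lay in the first 50 transcribed bases. Over members with no peak, 59% of 647 matches read that way and 47.6% lay in those bases. A match describes the letters in the window and not binding.

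Members near a peak differed little from the rest in their ratio. Their median adjusted ratio was 0.04, beside −0.01 for the 10109 members without a peak. With the curve on level it was 0.01, beside −0.00. Of members near a peak 7.46% were higher and 6.6% lower, beside 5.24% and 6.79% of those without. For the 200 members near a peak with −log10 q of at least 5 the median was 0.12, or 0.07 with the curve on level, and 9.5% were higher and 4% lower. Members with a peak only inside the locus had −0.06, or −0.00 with the curve on level, with 9.07% higher and 7.84% lower. Of the 30 genes with the most extreme ratios among those eligible to be named, 2 were near a peak (6.67%), a share close to the 6.22% of all members.

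Among members near a peak that were eligible to be named, the 10 with the lowest ratios were Glg1, Eno1, Dot1l, Hnrnpul1, Zcchc3, Klhl11, Pgam5 and 3 more. These were Dolk, dolichol kinase, at 10.6 FPKM in WT and 4.00 FPKM in iKO (adjusted ratio −1.89), Prpf8, the core of the spliceosome, at 103 and 34.7 FPKM (−1.60), and Ezr, ezrin, at 60.1 and 17.6 FPKM (−1.52). The place of Eno1 among the 10 is uncertain, as is the split of its reads with Eno1b. The peaks at Dolk and Prpf8 have a deposited −log10 q of 0, and that at Pgam5 has 0.33. Over all 697 members near a peak the median of the best −log10 q was 2.08, and for 233 of them it was under 1. The 10 eligible members near a peak with the highest ratios were Cwc27, Hspb11, Ccdc58, BC051226, Mrps18a, Ufc1, Snrnp35 and 3 more. Ndufaf2, an assembly factor of complex I, was at 49.1 and 112 FPKM (1.58), and its peak has a −log10 q of only 0.25. Mpc2, of the mitochondrial pyruvate carrier, was at 27.0 and 79.4 FPKM (1.44), with 2 summits. Fars2, the mitochondrial phenylalanine tRNA synthetase, was at 13.8 and 25.4 FPKM (1.30). By list, 9 of 37 complex I genes (24.3%) and 10 of 41 SR and hnRNP genes (24.4%) were near a peak, where 6.22% of all members are. The first list has a median of 0.81 and the second of −0.15.

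The motif went with lower ratios where no peak was near. Of 612 members with the motif and no peak, 10.3% were 2-fold lower and 3.43% higher, with a median adjusted ratio of −0.11, or −0.15 with the curve on level. Of 7104 with neither, 6.14% were lower and 5.15% higher, with a median of −0.01, or 0.00 with the curve on level. In freshly isolated cells the 2 medians were −0.06 and 0.01. Where a peak was near, members with the motif had 4.98% lower and 5.69% higher and those without it 6.83% and 9.35%. Their medians were 0.09 and 0.01, or 0.02 and −0.03 with the curve on level. None of these differences was tested.

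**Figure D5:**
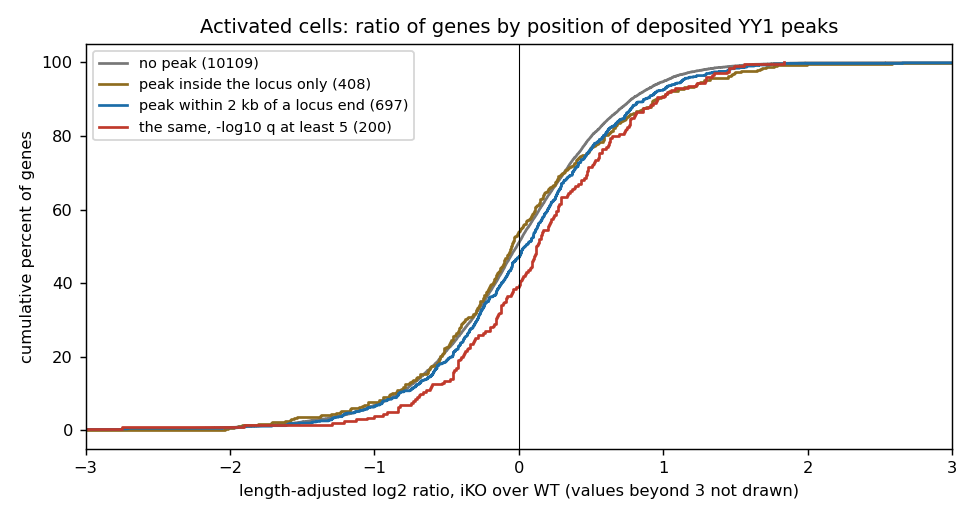
Cumulative percent of member genes against the adjusted log2 ratio of iKO over WT, for genes with no deposited YY1 peak, a peak only inside the locus, a peak within 2 kb of a locus end, and the last with a −log10 q of at least 5 (number of genes in parentheses). The curves nearly overlie, with that of the 200 genes near a peak of −log10 q at least 5 displaced to the right, at a median of 0.12.

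Few members differed by 2-fold in both states. In the freshly isolated pair 76 genes (0.677%) were higher and 81 (0.721%) lower by the unadjusted ratio. Of the 979 higher in activated cells 22 were higher in both, 2.25% of the activated and 28.9% of the freshly isolated set, and of the 926 lower 10 were lower in both, 1.08% and 12.3%. Over all members of the activated pair 8.73% were higher and 8.26% lower, so the freshly isolated sets had larger shares. The 10 lower in both were Yy1 and 9 others. Yy1 itself was at 55.2 FPKM in WT and 2.03 FPKM in iKO, and at 51.0 and 20.1 FPKM in freshly isolated cells, where the loss was smaller. Il1r1, the interleukin-1 receptor, was at 10.3 FPKM in WT and 3.31 FPKM in iKO, and at 104 and 29.2 FPKM in freshly isolated cells. Hmgb3, a chromatin protein on the X chromosome, was at 35.6 and 14.0 FPKM, and at 5.61 and 2.03 FPKM. Clmp, an adhesion molecule, was at 12.7 and 2.59 FPKM, and at 25.2 and 10.7 FPKM. The others included Clybl, which shares its listed locus, Spata24, P2ry2, Alpl and Ankrd49. Among the 22 higher in both were Slc25a29, Sbsn, Akt1s1 and Acyp1, an acylphosphatase at 6.35 and 26.1 FPKM, and at 3.59 and 12.8 FPKM. Rmrp, the RNA of ribonuclease MRP, was listed at 0 in WT and at 4.94 FPKM in iKO, and at 9.48 and 30.6 FPKM in freshly isolated cells. Rpph1, the RNA of ribonuclease P, was at 4.08 and 15.2 FPKM, and at 5.30 and 21.3 FPKM. These RNAs lack a poly(A) tail in their mature form, and the libraries are of polyadenylated RNA. The genes that differ in both states were chosen after their values were seen.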

How the data were processed

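RNA of 4 libraries (activated and freshly isolated satellite cells, WT and iKO, 1 library each) and a list of YY1 peaks with its input were used. FPKM values per gene, with a locus, were deposited by the authors in a table for each state. Per the submitters' processing notes the build was mm9 and the tools included MACS2 2.1.0, TopHat2 and Cufflinks 2.2.1, with no role stated for any of them. The peak list deposited by the authors gives each peak's −log10 p and −log10 q values and its summit offset, and whether replicates were pooled is not stated. FPKM carry no read counts, so no counting interval could be given. Locus starts in the tables count from 0 and were given 1 added.

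Ratios were computed with a pseudocount of 1 FPKM, which understates the change of low genes. Genes under 1 FPKM in both libraries were left out, as was Mir762. The length adjustment was a lowess curve (fraction 0.3, 3 passes) of the ratio on log10 locus length over all members. The level adjustment, chosen after seeing the data, was a second such curve on log10 mean FPKM. The named genes were Yy1, the 15 lowest and 15 highest adjusted ratios among members of at least 5 FPKM that share no locus and have no small RNA, clone or predicted-gene symbol, up to 5 at each end of a list, and up to 10 at each end near a peak. The members and lists were chosen with earlier results of these data known. RefSeq promoters (GRCm38.p6) were matched by symbol for 8592 members, and no coordinate was moved between builds. The calculation was run on simulated data with a straight-line length trend, large planted shifts and a smaller spread than the real data. That run checked the code and does not bear on the ratios above. Python 3.11.15, pandas 2.3.3, numpy 2.4.6, statsmodels 0.14.6 and matplotlib 3.10.9 were used. Alternatives were another pseudocount, other filters, upper-quartile and equal-sum scaling, shared loci left out, length deciles, a 5 kb peak window and stronger peaks. Some members that the naming rule covers are not reported here.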

Additional observations from a re-analysis of the deposited data

Results flagged for a closer look

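Mir762, a microRNA gene, was left out of all ratios. It was listed at 496241 FPKM in the activated iKO library and at 0 in the activated WT library.

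Of the members 2-fold higher in activated iKO cells 4, and of those 2-fold lower 9, were past 2-fold the opposite way in freshly isolated cells, a difference between the states that was not tested. The 5 of them with at least 5 FPKM and a symbol eligible for naming all share a listed locus, and their unadjusted log2 ratios follow. Eif3j1 stood at −4.102 in activated and 4.66 in freshly isolated cells, and Rps27 at −1.88 and 4.102. Amd2 stood at −1.73 and 3.29, and Amd1, its near-identical copy, at 4.42 and −1.10. Lrch4 stood at −1.94 and 1.08. The split of reads between entries of a shared locus or near-identical copies is uncertain for all 5.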

How the results depend on the processing

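All 30 named genes stayed past 2-fold by the adjusted ratio in the 8 alternatives tried. With a pseudocount of 0.1 the length-adjusted count of lower genes was 1149 (764 with 1), and with shared loci left out that of higher genes was 386 (619 with them). With both libraries scaled to equal FPKM sums, 166 genes were 2-fold higher and 2445 lower by the unadjusted ratio, against 979 and 926. The median of contractile and differentiation genes was −0.10 with a filter at 5 FPKM and 0.40 with the filter at 1 FPKM. The X-linked median lay between −0.25 and −0.11, and that of genes near a peak between 0.01 and 0.12. The level curve, the equal sums and the X-linked median with its alternatives were chosen after seeing the data. No paired analysis was possible because each group has 1 library and the labels carry no replicate numbers, and for the same reason no library could be left out. Depth is known only as a ratio between libraries, so the counting error of genes with low FPKM is unknown.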
